A study of Mus musculus with 5 samples.

Results

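Erythroid genes, the genes that red cell precursors of the bone marrow use to make and package haemoglobin, were compared between knee joints of mice lacking both epiphycan and biglycan and knee joints of wildtype mice. The list held 37 genes chosen by name for their role in the erythroid lineage, each measured on the probe set with its platform gene symbol that was brightest over all 5 arrays. Of these genes 33 had a probe set of their own, out of 12393 genes with one, and 32 passed the filter on dim signals, out of 7436 genes tested. Hba-a1 had an own probe set below that filter, Hbb-b1 and Hbb-bt shared a single probe set with other beta globin genes, and Ahsp and Epb41 were not analysed here.

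The double-null group consisted of 3 samples from animals null for epiphycan (Epyc) and biglycan (Bgn), and the wildtype group of 2 samples. All animals were male, 3 months old and of a C57/Bl6:129 hybrid strain. Each sample pooled 6 tibio-femoral joints from 3 mice and was hybridised to 1 Affymetrix array, so a replicate is a pool of animals and not a single mouse. The arrays came as 2 tables, called array types here: type A held double-null pool 3 and wildtype pool 2, and type B held double-null pools 1 and 2 and wildtype pool 1. A level set across types may carry a difference between the tables, and the within-type differences are given beside the fit. Whole joints were used, so that a lower signal from fewer red cell precursors and one from less RNA per precursor cannot be told apart.

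Red cell precursors mature in marrow around macrophages, and the ends of the femur and tibia hold such marrow. GATA1, TAL1 and KLF1 switch on the globin genes, the enzymes of haem synthesis and the spectrin-based skeleton that lines the red cell membrane, while erythropoietin acting on its receptor keeps the precursors alive. Haem is built from glycine and succinyl-CoA in steps that run partly in mitochondria and partly in the cytosol, with iron brought in through the transferrin receptor.

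As a check of the labels, Bgn read 204, 224 and 206 in double-null pools 1 to 3, against 3413 and 2003 in wildtype pools 1 and 2 on its least reduced probe set. Another Bgn probe set read 67.6, 57.6 and 13.2 in double-null pools 1 to 3, against 4015 and 2024 in wildtype pools 1 and 2. The single Epyc probe set read 10.8, 3.38 and 1.29 in double-null pools 1 to 3, against 91.2 and 78.8 in wildtype pools 1 and 2. Both genes were lower in every double-null pool than in either wildtype pool. Over 22626 probe sets the 3 Bgn probe sets passed (limma adjusted p 0.0034, 0.0047 and 0.00062) and Epyc did not (adjusted p 0.16). Signals ran from 0.0423 to 26173, the 27 Bacillus controls, whose targets are not mouse genes, reached 63.5, and array correlations across probe sets lay between 0.966 and 0.974. Cartilage and bone genes were present, among them Comp at 4367 ± 704 in double-null and 2423 ± 614 in wildtype pools (mean signal ± SD, n = 3 and n = 2) and Sp7 at 246 ± 55.7 in double-null and 270.2 ± 51.1 in wildtype pools (mean signal ± SD, n = 3 and n = 2).

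The lowest signal of any tested member on any array was 281, against 63.5 for the highest Bacillus control. The filter, at a mean signal of 98.5, already lay above that control, so passing it favours such a result. The own probe set of Hba-a1 did not pass the filter. No erythroid gene passed the threshold on its brightest probe set. Of the 32 members tested, 13 had a positive and 19 a negative log2 fold change (double-null over wildtype), 0 rose and 0 fell at a limma adjusted p under 0.05, and 1 had an unadjusted p under 0.05. The same fit called 9 of 7436 genes, 0.121%, with 6 (0.0807%) higher and 3 (0.0403%) lower, so 0 of 32 is near the background. At an unadjusted p under 0.05 the background was 6.17%. The members' median log2 fold change was -0.020, against -0.011 over all genes tested. The members ran from -0.49 for Blvrb to 0.23 for Ermap. Standard errors ran from 0.12 to 0.25, and the 95% interval had a median half-width of 0.38. The lowest lower bound of any member was -0.88 (Blvrb) and the highest upper bound 0.58 (Tspo2), so the arrays leave room for single genes to differ by these amounts. The smallest p an exact permutation test allows with 3 pools against 2 is 0.1 when array type is ignored. Exchanging labels only within array types allows fewer arrangements, so that limit is then higher.

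**Figure D1:**
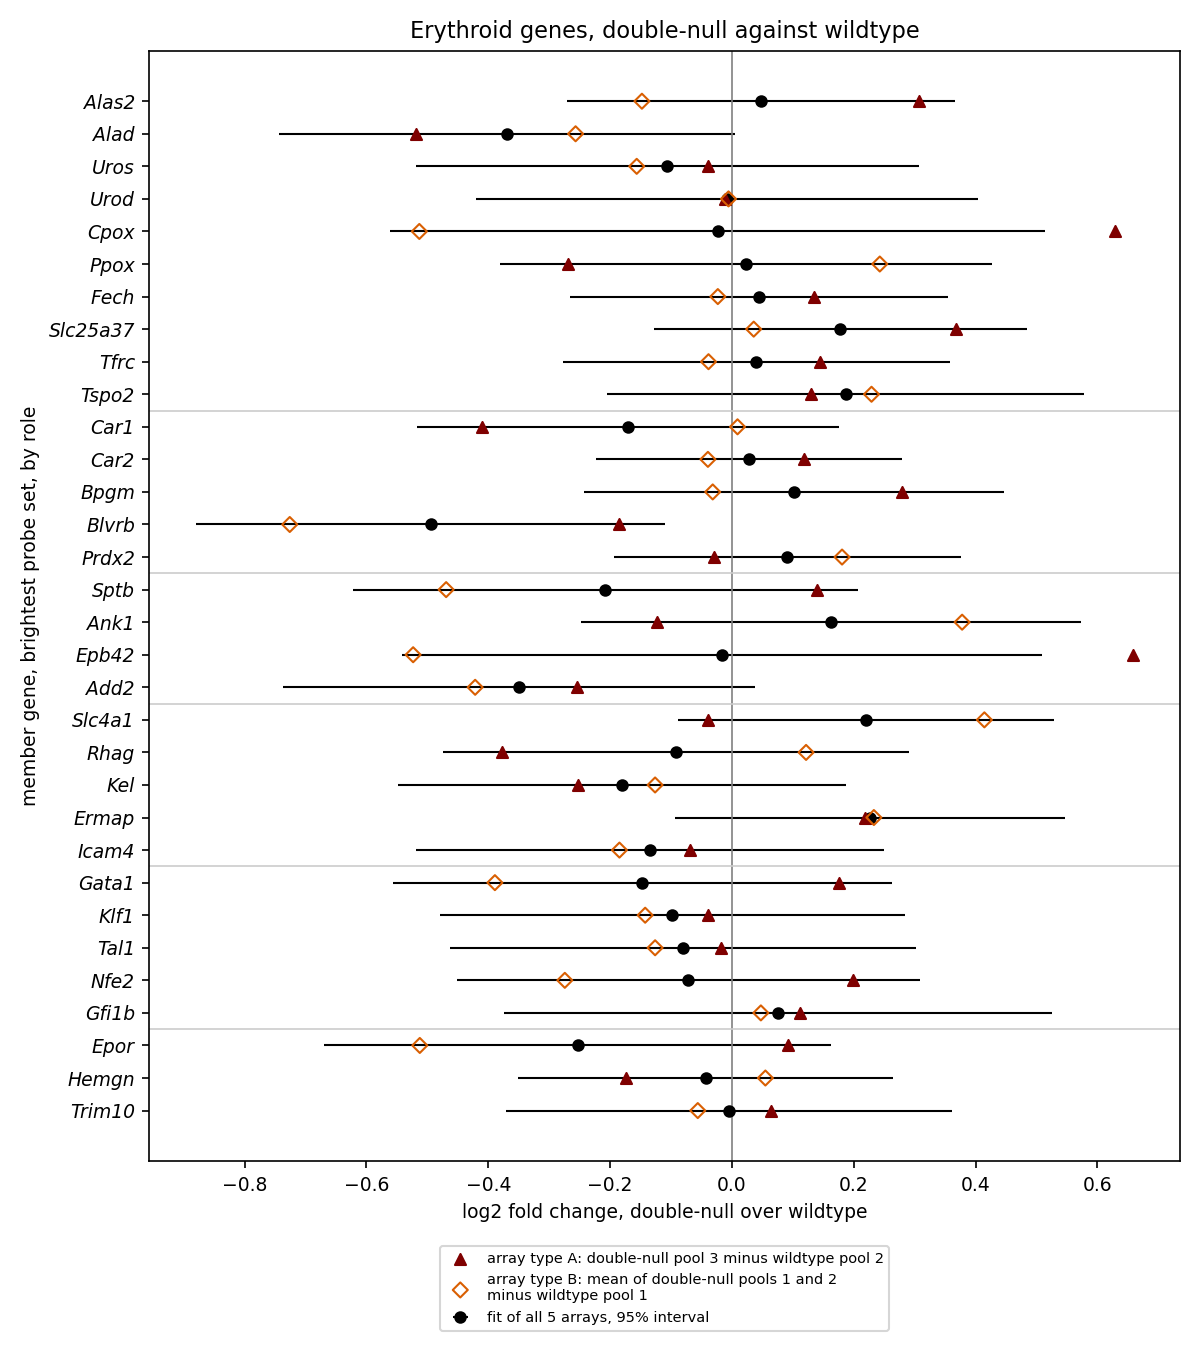
Log2 fold change of each of the 32 erythroid genes tested (x axis, double-null over wildtype) with its 95% interval from the fit of all 5 arrays, and the differences within array types A and B as separate symbols; genes run down the page by role. Of the intervals only that of Blvrb leaves out 0, and for 19 of the 32 genes the symbols of types A and B lie on opposite sides of 0.

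The globin signals overlapped between the groups, and pools of the same genotype differed widely. The globins are the protein chains of haemoglobin. The beta globin probe set, annotated to Hbb-bt, Hbb-bs, Hbb-b2 and Hbb-b1 together, read 10846, 20066 and 16934 in double-null pools 1 to 3, against 20584 and 10258 in wildtype pools 1 and 2. Double-null pool 1 and wildtype pool 2 were low, the other pools were high, and the groups overlapped. The 3 alpha globin probe sets, each annotated to Hba-a1 and Hba-a2 together, had the same low and high pools. On one of them the signals were 10258, 19371 and 15776.5 in double-null pools 1 to 3, against 18537 and 10682 in wildtype pools 1 and 2. On the deposited scale the beta globin signal of double-null pool 3 was 1.65 times that of wildtype pool 2 on array type A. On type B, double-null pool 1 was at 0.527 times and double-null pool 2 at 0.975 times wildtype pool 1. Wildtype pool 1 was itself 2.01 times wildtype pool 2, and double-null pool 2 was 1.85 times double-null pool 1.

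The 4 shared globin probe sets had log2 fold changes of 0.073 for beta globin and -0.029, -0.023 and 0.090 for alpha globin (95% interval -0.38 to 0.53 for beta globin), and none passed over 22626 probe sets, of which 6 (0.0265%) did. Quantile normalisation sets signals of equal rank equal, and these probe sets were among the brightest on every array, so it narrows their range. With the deposited scaling the fold changes were 0.035 for beta globin and -0.072, 0.015 and -0.0048 for alpha globin. Together the 4 probe sets held 0.515%, 0.844% and 0.739% of the summed signal in double-null pools 1 to 3, against 0.859% and 0.512% in wildtype pools 1 and 2. The same pools were low in other measures of bright signal and in the summed signal of the array. The summed signal was 7848104, 8208777 and 7975982 in double-null pools 1 to 3, and 8343902 and 7729290 in wildtype pools 1 and 2. The 3' probe set of the Gapdh control read 6576, 8501 and 8532 in double-null pools 1 to 3. It read 10053 and 6876 in wildtype pools 1 and 2. The 3' probe set of the beta-actin control read 13199.8, 21479.5 and 16658.5 in double-null pools 1 to 3, against 22488 and 12147 in wildtype pools 1 and 2, and the highest signal on the array was 15422, 24381 and 20625.5 in double-null pools 1 to 3, against 26173 and 15941 in wildtype pools 1 and 2. Other bright genes had other low pools, such as Acta1 and Ckm with double-null pool 2. The part of this in the globin range was not tested.

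**Figure D2:**
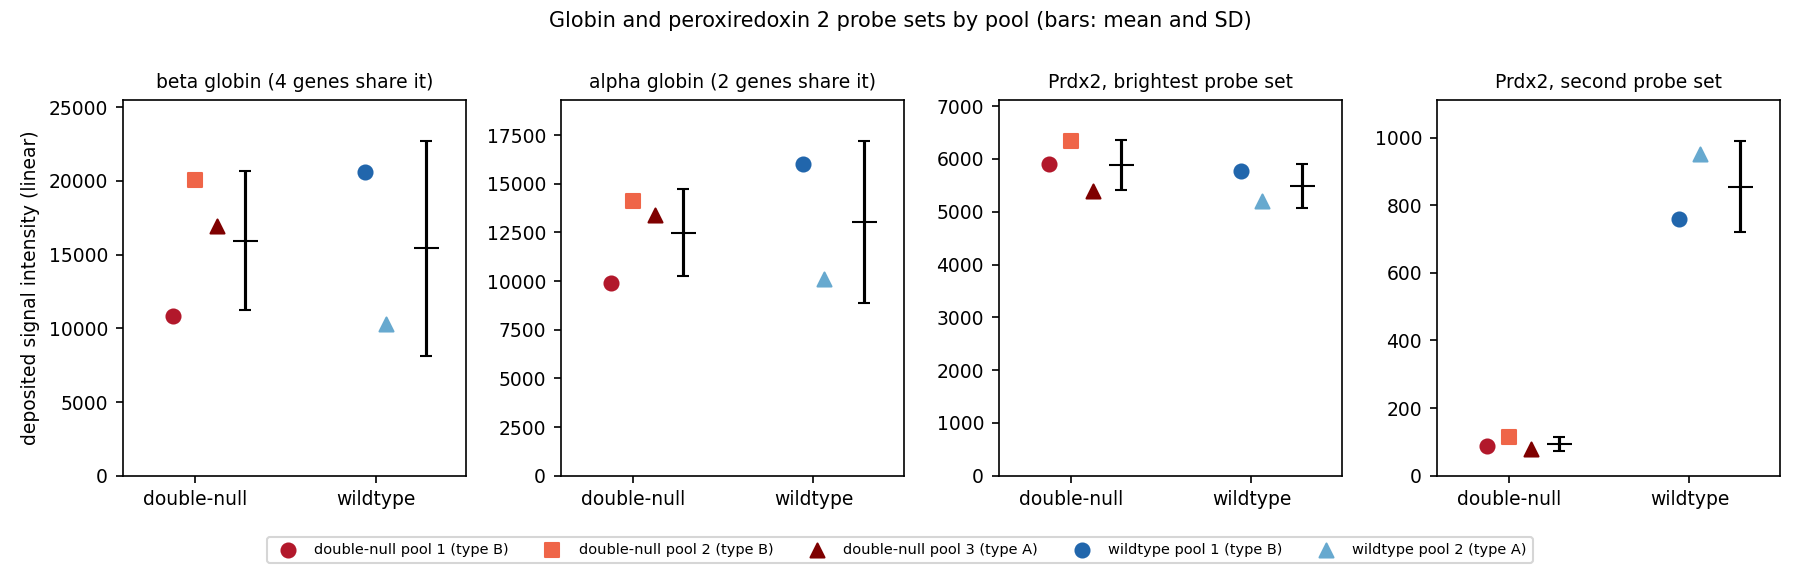
Deposited signal intensity (y axis, linear, from 0) of the shared beta globin probe set, one of the shared alpha globin probe sets and both Prdx2 probe sets in each pool, double-null left of wildtype, with mean and SD beside the points (n = 3 and n = 2). The globin points of the groups overlap, with double-null pool 1 and wildtype pool 2 low, while on the second Prdx2 probe set all double-null points lie near 100 and both wildtype points above 700.

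Probe sets of single globin genes were dim or disagreed. The own probe set of Hba-a1 read 32.1, 10.1 and 13.2 in double-null pools 1 to 3, against 23.3 and 52.6 in wildtype pools 1 and 2. Each lies below the filter, and those of double-null pools 2 and 3 and wildtype pool 1 below the highest Bacillus control of the same array. On double-null pool 1 and wildtype pool 2 that control was at 31.4 and 36.3, and the probe set stood above it. Hbb-b2, a minor adult beta globin gene, had a probe set at 108, 149.7 and 174 in double-null pools 1 to 3, against 548 and 130.1 in wildtype pools 1 and 2. The other probe set of Hbb-b2 read 1772, 2169.8 and 1902 in double-null pools 1 to 3, against 1242 and 2087 in wildtype pools 1 and 2. On the first, wildtype pool 1 alone was high, and on the second it was the lowest. The embryonic globins Hbb-y, Hbb-bh1 and Hba-x, which serve the primitive red cells of the yolk sac, stayed at or below 50.2 on all their probe sets and arrays. That value was an Hbb-bh1 probe set in wildtype pool 1, whose highest Bacillus control was at 38.5.

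Haem synthesis and iron supply, with 10 members tested, had 6 positive and 4 negative log2 fold changes and a median of 0.032, and 0 passed. Alas2, the erythroid form of the enzyme that starts the pathway, read 5962, 5624 and 7456 in double-null pools 1 to 3, against 7102 and 5522 in wildtype pools 1 and 2. Double-null pool 3 was the highest and wildtype pool 2 the lowest, with the other pools between them. Fech, which inserts iron into the ring in the last step, read 5367, 4756 and 5016.5 in double-null pools 1 to 3, against 5443 and 4247 in wildtype pools 1 and 2, at a log2 fold change of 0.044 (95% interval -0.27 to 0.35). Alad, which joins the first product into a pyrrole, was the member of this group with the lowest value. Its signal was 825, 753.5 and 682 in double-null pools 1 to 3, against 916 and 991 in wildtype pools 1 and 2, so every double-null pool lay below both wildtype pools. The log2 fold change of Alad was -0.37 ± 0.17 (SE), with -0.52 within type A and -0.26 within type B, which did not pass (limma adjusted p 0.82).

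The middle steps of the pathway did not pass and differed between pools. Uros and Urod, which close the ring and trim its side chains, were at -0.11 and -0.0081. Cpox, a mitochondrial oxidase of the next step, read 1069, 1451 and 1531 in double-null pools 1 to 3, against 1708 and 1001 in wildtype pools 1 and 2. Wildtype pool 1 was the highest and wildtype pool 2 the lowest of the 5 pools, and both double-null values on type B lay below their wildtype pool while that on type A lay above it. The differences of Cpox were 0.63 on type A and -0.51 on type B. Ppox, the oxidase before the last step, ran the other way, with -0.27 within type A and 0.24 within type B. The second probe set of Cpox had -0.36 on type A and 0.10 on type B, the reverse of the first.

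The remaining members of this group did not pass. Slc25a37, the mitochondrial iron importer mitoferrin 1, read 4803, 4768 and 5531 in double-null pools 1 to 3, against 4844.5 and 4055 in wildtype pools 1 and 2, at 0.18 (95% interval -0.13 to 0.48). Double-null pool 3 was the highest, and wildtype pool 1 lay within the double-null range. Tspo2, an erythroid relative of the mitochondrial translocator protein, read 710.3, 554 and 494 in double-null pools 1 to 3, against 523.5 and 454 in wildtype pools 1 and 2, at 0.19, and its groups overlapped through wildtype pool 1. Tfrc, the transferrin receptor that takes up iron-loaded transferrin, read 3401, 3129.8 and 3046 in double-null pools 1 to 3, against 3514 and 2744 in wildtype pools 1 and 2 on its brightest probe set. There the groups overlapped, with a log2 fold change of 0.040.

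The other probe sets of Tfrc did not read alike. One read 1088, 837 and 786 in double-null pools 1 to 3, against 878 and 312 in wildtype pools 1 and 2. The other read 179, 173 and 188 in double-null pools 1 to 3, against 133 and 77.6 in wildtype pools 1 and 2. They had log2 fold changes of 0.60 and 0.66 over all probe sets, neither past the threshold (limma adjusted p 0.92 and 0.85). Wildtype pool 2 was the lowest on each of the 3 probe sets, and by the most on the 2 dimmer ones, where the type A differences were 1.28 and 1.0 and the type B differences 0.082 and 0.40. The array's control probe sets for Tfrc gave the same low pool: the 3' one read 484, 425 and 371 in double-null pools 1 to 3, against 371.5 and 128.4 in wildtype pools 1 and 2. The 3' over 5' ratio of those controls, a measure of how far labelled RNA reaches from its 3' end, was 3.71, 4.26 and 6.16 in double-null pools 1 to 3, against 3.86 and 3.85 in wildtype pools 1 and 2. The same ratio of the beta-actin control was 1.25, 1.18 and 1.08 in double-null pools 1 to 3. It was 1.10 and 1.15 in wildtype pools 1 and 2. For the Gapdh control it was 1.03, 1.04 and 0.888 in double-null pools 1 to 3. There the wildtype pools 1 and 2 were at 1.03 and 0.849. The part of the Tfrc control ratio in the Tfrc values was not tested.

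Promoters of members are shown for the globins, the main product of red cell precursors, for Alas2, which starts haem synthesis, and for Prdx2, which is described next. The sequences are the 300 bases from 250 before to 50 after the RefSeq start of each gene (GRCm38.p6), written 5′ to 3′ on the gene's strand, and capitals mark the letters AGATAA (bound by GATA factors), CCNCNCCC (CACCC boxes, bound by KLF1) and TGANTCA (bound by NF-E2 and AP-1) on either strand. Matches may overlap each other.
Hba-a1, chr11:32283422-32283721, plus strand: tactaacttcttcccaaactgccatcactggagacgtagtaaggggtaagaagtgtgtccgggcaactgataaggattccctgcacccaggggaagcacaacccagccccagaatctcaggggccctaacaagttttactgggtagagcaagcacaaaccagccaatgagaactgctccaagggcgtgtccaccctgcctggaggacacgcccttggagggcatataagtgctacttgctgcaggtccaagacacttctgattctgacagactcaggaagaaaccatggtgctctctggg
Hbb-bt, chr7:103813874-103814173, minus strand: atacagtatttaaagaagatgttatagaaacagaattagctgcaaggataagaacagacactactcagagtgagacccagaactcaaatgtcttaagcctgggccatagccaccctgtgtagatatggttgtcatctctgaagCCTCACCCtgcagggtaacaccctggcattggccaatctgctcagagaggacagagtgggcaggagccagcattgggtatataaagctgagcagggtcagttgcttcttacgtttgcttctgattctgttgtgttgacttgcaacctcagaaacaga
Alas2, chrX:150547167-150547466, plus strand: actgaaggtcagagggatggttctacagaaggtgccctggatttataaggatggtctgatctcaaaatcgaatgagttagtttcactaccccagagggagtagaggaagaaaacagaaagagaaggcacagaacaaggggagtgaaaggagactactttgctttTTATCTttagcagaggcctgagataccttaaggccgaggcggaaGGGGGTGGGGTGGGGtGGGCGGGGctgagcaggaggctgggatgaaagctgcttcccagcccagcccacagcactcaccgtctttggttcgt
Prdx2, chr8:84969372-84969671, plus strand: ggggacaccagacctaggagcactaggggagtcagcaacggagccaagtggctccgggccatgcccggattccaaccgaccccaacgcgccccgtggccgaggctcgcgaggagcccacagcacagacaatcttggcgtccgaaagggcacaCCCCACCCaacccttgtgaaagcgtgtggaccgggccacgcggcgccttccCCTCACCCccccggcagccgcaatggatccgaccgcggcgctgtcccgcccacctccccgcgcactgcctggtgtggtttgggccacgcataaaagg
The Alas2 window held a GATA match on the opposite strand that lay 86 bases before the start and 4 overlapping or adjacent CACCC matches within 42 bases of it. The Hbb-bt window held 1 CACCC match, the Prdx2 window 2, and the Hba-a1 window had none of these letters. Over 35 promoter entries of 28 members, 25.7% held AGATAA, against 11.2% of all 32851 promoters of the same length. The share with CCNCNCCC was 68.6% against 49.5%, and with TGANTCA 5.71% against 7.81%. These shares describe the letters, with several entries from 1 gene in places, and were not tested.

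Prdx2, encoding peroxiredoxin 2, an abundant red cell protein that removes hydrogen peroxide, gave a fall on 1 of its probe sets and no called change on the other. Its brightest probe set read 5911.5, 6348 and 5396 in double-null pools 1 to 3, against 5779 and 5198 in wildtype pools 1 and 2, with overlapping groups and a log2 fold change of 0.091 ± 0.13 (SE). Its second probe set read 87.0, 116 and 78.5 in double-null pools 1 to 3, against 759 and 951 in wildtype pools 1 and 2. On it every double-null pool was far below both wildtype pools, with group means of 93.8 ± 19.6 in double-null pools (SD, n = 3) and 855 ± 136 in wildtype pools (n = 2). This probe set fell, with a log2 fold change of -2.83 ± 0.22 (SE, limma adjusted p 0.024 over 22626 probe sets), -3.22 on array type A and -2.53 on type B. It ranked the fifth smallest in p of all probe sets, and was singled out after its values were seen. Of the 50 probe sets of the members it was the only one past the threshold.

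The call of the second Prdx2 probe set did not hold throughout. It held in 7 of 13 tested alternatives. Among the settings that ended it were array type B alone, the fit without the intensity trend, and those where double-null pool 3 or either wildtype pool was left out, although the fold change stayed between -3.24 and -2.54 without any single pool. The double-null signals lay above the highest Bacillus control, 63.5, on each array. Which transcript forms of Prdx2 each probe set reads was not tested. When a gene's probe sets were averaged instead of taking the brightest, Prdx2 was at -1.37 (limma adjusted p 0.006) and was then the single member past the threshold. The 10 tested genes nearest to Prdx2 in the RefSeq gene order, 5 on each side and with Klf1 among them, were read on their brightest probe sets. They had log2 fold changes between -0.25 and 0.29, and 0 passed. Prdx2 itself was at 0.091 on that measure, which cannot show a fall on a dimmer probe set of a neighbour.

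Among the other red cell enzymes, Blvrb had the lowest value of all members. Blvrb, biliverdin reductase B, reduces biliverdin and flavins in red cells, and read 1590.1, 1347 and 1510.0 in double-null pools 1 to 3, against 2347 and 1738 in wildtype pools 1 and 2. Every double-null pool lay below both wildtype pools. Its log2 fold change was -0.49 ± 0.18 (SE, 95% interval -0.88 to -0.11), with an unadjusted p of 0.016 and a limma adjusted p of 0.66, so it did not pass. The size differed between array types, with -0.19 within type A against -0.73 within type B.

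The carbonic anhydrases, which interconvert carbon dioxide and bicarbonate, overlapped between groups. Car1 read 2801, 2735 and 1862 in double-null pools 1 to 3, against 2844 and 2470.5 in wildtype pools 1 and 2, with double-null pool 3 the lowest, at -0.17. Car2, which osteoclasts use as well, read 8823, 11236 and 9722.4 in double-null pools 1 to 3, against 12427 and 7989 in wildtype pools 1 and 2, with the highest and the lowest value both in wildtype pools, at 0.028 (95% interval -0.22 to 0.28). Bpgm, which makes the 2,3-bisphosphoglycerate that loosens oxygen from haemoglobin, read 2507, 2224 and 2646 in double-null pools 1 to 3, against 2354 and 2165 in wildtype pools 1 and 2, at 0.10. Its dimmer probe sets were at -0.11 and -0.049.

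The membrane skeleton and membrane proteins, with 9 members tested, had 3 positive and 6 negative fold changes, a median of -0.092, and 0 passed. Sptb, the beta chain of erythroid spectrin, read 617.5, 635 and 783 in double-null pools 1 to 3, against 865 and 711 in wildtype pools 1 and 2, at -0.21. Ank1, the ankyrin that ties spectrin to the membrane, read 1323, 1567 and 934 in double-null pools 1 to 3, against 1054.5 and 1020.3 in wildtype pools 1 and 2, at 0.16 on its brightest probe set and -0.15 on the next. Wildtype pool 1 was the highest for Sptb, and double-null pool 2 for Ank1. Add2, the beta adducin that caps and links skeletal actin, read 349.5, 425.5 and 400.0 in double-null pools 1 to 3, against 531 and 484 in wildtype pools 1 and 2. Its double-null pools all lay below the wildtype pools, at -0.35 ± 0.18 (SE, limma adjusted p 0.85), with -0.25 on type A and -0.42 on type B.

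Epb42, protein 4.2, which binds ankyrin and band 3, had the widest range among the 32 members tested on their brightest probe sets. It read 396, 423 and 493 in double-null pools 1 to 3, against 602 and 305 in wildtype pools 1 and 2, so that the wildtype pools held both extremes, 1.98 times apart. The log2 fold change was -0.017, made of 0.66 on type A and -0.52 on type B. Its other probe set had -0.34 and 0.43 in the same order, the opposite signs. A test of whether the genotype difference itself differed between array types was added after the data were seen. It gave limma unadjusted p = 0.0073 for Epb42 and 0.018 for Cpox. These were the 2 of 32 members under 0.05, where 6.29% of all genes were. In that test only double-null pools 1 and 2 shared both genotype and array type, so a gene's own spread came from them alone. After adjustment 0 of 7436 genes passed.

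Slc4a1, the band 3 anion exchanger that is the main protein of the red cell membrane, read 7213, 7773 and 6049 in double-null pools 1 to 3, against 6061 and 5775 in wildtype pools 1 and 2. Both double-null pools of type B were higher than all other pools, and double-null pool 3 lay close to the wildtype pools. The log2 fold change was 0.22 (95% interval -0.089 to 0.53), with -0.039 within type A and 0.41 within type B. Its second bright probe set was at 0.12. Ermap, an erythroid membrane protein of the immunoglobulin superfamily, read 3075, 2850.3 and 2582 in double-null pools 1 to 3, against 2566 and 2203 in wildtype pools 1 and 2. It was higher in every double-null pool, at 0.23 ± 0.15 (SE), and did not pass (limma adjusted p 0.9). Its differences within the types were alike, 0.22 on type A and 0.23 on type B.

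The other surface proteins did not pass either. Kel, the Kell endopeptidase, read 840.2, 871 and 761 in double-null pools 1 to 3, against 907 and 915 in wildtype pools 1 and 2. Icam4, an adhesion protein of the red cell surface, read 335.5, 281 and 331 in double-null pools 1 to 3, against 359.5 and 349 in wildtype pools 1 and 2. In both genes every double-null pool lay below the wildtype pools, at -0.18 (95% interval -0.55 to 0.19) for Kel and -0.13 (-0.52 to 0.25) for Icam4. Rhag, the Rh-associated ammonium channel, read 1455.5, 1408 and 1186 in double-null pools 1 to 3, against 1232 and 1554 in wildtype pools 1 and 2, at -0.092, with -0.38 on type A and 0.12 on type B.

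The transcription factors each overlapped between the groups. With the other regulators they had 1 positive and 7 negative values of 8, a median of -0.076, and 0 passed. Over all genes tested 3874 of 7436 values were negative. The direction differed between array types. Within type A 5 of the 8 were higher in double-null, with a median of 0.078. Within type B 2 of the 8 were higher, with a median of -0.13. Gata1 read 653, 593.5 and 716 in double-null pools 1 to 3, against 806 and 635 in wildtype pools 1 and 2, at -0.15 (95% interval -0.56 to 0.26). Klf1, which drives adult beta globin, read 1489, 1876 and 1387 in double-null pools 1 to 3, against 1747.5 and 1434 in wildtype pools 1 and 2, at -0.10. Tal1, the partner of GATA1 in its complexes, read 1478, 1082 and 1109.9 in double-null pools 1 to 3, against 1312 and 1138.5 in wildtype pools 1 and 2, at -0.080. For Gata1 and Nfe2 wildtype pool 1 was the highest of the 5 pools. Nfe2, the factor of NF-E2 sites that megakaryocytes use as well, ran between 1364.5 and 1666 and was at -0.072. Gfi1b, a repressor needed for red cell and platelet precursors, read 643, 399.9 and 399 in double-null pools 1 to 3, against 482 and 369.5 in wildtype pools 1 and 2, with double-null pool 1 far above the rest, at 0.075.

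The other regulators had values near 0 or below. Epor, the erythropoietin receptor, read 397, 419 and 512 in double-null pools 1 to 3, against 593 and 481 in wildtype pools 1 and 2, at -0.25 (95% interval -0.67 to 0.16), with 0.092 on type A and -0.51 on type B. Wildtype pool 1 was the highest, and wildtype pool 2 lay within the double-null range. Hemgn (hemogen), a nuclear protein of blood precursors, was at -0.043, and Trim10, a RING finger protein of late red cell precursors, was at -0.0046.

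Across the members, differences between single pools of the same genotype were set beside the fold changes between genotypes. The median absolute log2 difference between wildtype pools 1 and 2, which lie on different array types, was 0.16. Between double-null pools 2 and 1, both on type B, it was 0.13, and the median absolute log2 fold change was 0.10. Over all genes tested these values were 0.21, 0.19 and 0.13. The fold change was fitted over all pools with a term for array type, while each pool difference sets a single pool against another. Their sizes therefore cannot be compared directly. The highest signal of a member was a median of 1.37 times its lowest, against 1.48 times over all genes tested. On the normalised scale wildtype pool 1 exceeded wildtype pool 2 in 24 of 32 members (75.0%), against 51.8% of all genes. This set single pools on different array types against each other. On the deposited scale wildtype pool 2 was the lowest pool for 15 members (46.9%), against 17.7% of all genes tested. There wildtype pool 1 was the highest for 13 (40.6%), against 24.8%. Wildtype pool 2 also had the lowest summed array signal and wildtype pool 1 the highest. The genes behind the all-gene shares were not matched to the members by brightness.

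Direction differed between the array types for many members. On array type A double-null pool 3 was higher than wildtype pool 2 in 16 of 32 members. On type B the mean of double-null pools 1 and 2 was higher than wildtype pool 1 in 11. The signs on the types were opposite in 19 members, where 52.7% of all genes had opposite signs. All double-null pools lay above both wildtype pools for 2 members (Slc25a37 and Ermap, on the normalised scale), where 9.45% of all genes did, and below both for 5 (Alad, Blvrb, Add2, Kel and Icam4), where 10.2% of all genes did. The members' median was 0.026 on type A and -0.048 on type B.

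**Figure D3:**
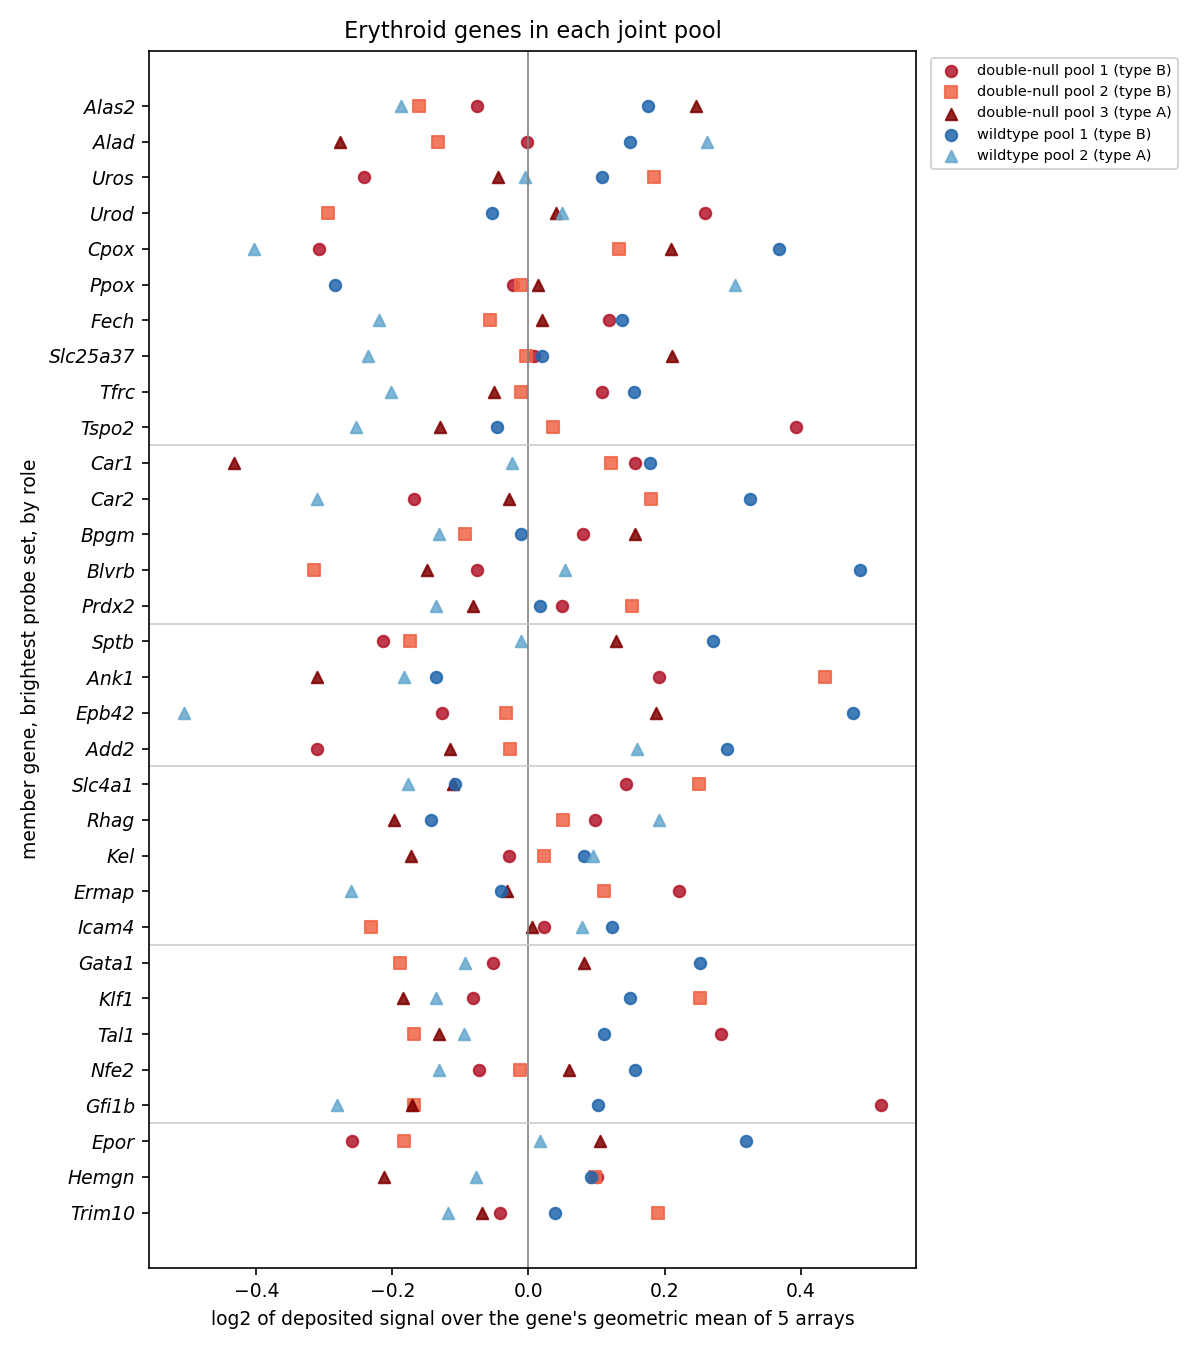
Deposited signal of each erythroid gene tested in each pool, as log2 over the gene's geometric mean of the 5 arrays (x axis), with genes down the page by role; double-null pools are in red and wildtype pools in blue, and triangles mark array type A. The colours mix in most genes, wildtype pool 2 is the lowest point for 15 genes and wildtype pool 1 the highest for 13.

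A further 50 genes of red cell precursors were listed by function, and 36 of them were tested. Fold changes were positive in 22 and negative in 14 of these, their median was 0.034, and 0 rose or fell (background 0.121%). An unadjusted p under 0.05 was found for 3 (background 6.17%). Foxo3, a factor that guards maturing red cells against oxidation and acts in many other cells, had the smallest p. It read 1216, 1240.5 and 824 in double-null pools 1 to 3, against 424.5 and 730.3 in wildtype pools 1 and 2, with every double-null pool above the wildtype pools, at 0.89 ± 0.25 (SE, limma adjusted p 0.34), but 0.17 within type A and 1.43 within type B. Slc2a1, the glucose carrier GLUT1, was at 0.64, Abcb10, a mitochondrial transporter that stabilises mitoferrin 1, at 0.43, and Bcl11a, the silencer of fetal globin in humans, at 0.35. Ldb1, which bridges GATA1 and TAL1 complexes, was at -0.43, and the own probe set of Hba-a2 at -0.43.

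Pklr, the pyruvate kinase of red cells and liver, was singled out from that list after its values were seen. Its brightest probe set read 228, 258 and 244 in double-null pools 1 to 3, against 259.6 and 218 in wildtype pools 1 and 2, with overlapping groups, and another was at 0.21. The remaining probe set read 12, 16.0 and 18.0 in double-null pools 1 to 3, against 114 and 109.8 in wildtype pools 1 and 2, with every double-null pool inside the range of the Bacillus controls and both wildtype pools above it. Its log2 fold change of -1.58 ± 0.19 (SE) did not pass over 22626 probe sets (limma adjusted p 0.17). It lay between -2.76 and -0.73 as the constant added before the log was made smaller or larger.

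Of the 95 tested markers of other cells of the joint 0 passed, where 0.121% of all genes tested did. An unadjusted p under 0.05 was found for 10 of them, where 6.17% of all genes had one. Megakaryocyte genes, from a lineage that shares GATA1, TAL1, NFE2 and GFI1B with red cells, had 11 of 12 positive values and a median of 0.12, with Clec1b at 0.27 and Selp at 0.29. Their summed signal was 16922, 18143.5 and 15373 in double-null pools 1 to 3, against 15426 and 15342.5 in wildtype pools 1 and 2. The median was -0.011 on type A and 0.26 on type B. Of 8 mast cell genes 3 were above the filter, with Kit at 0.31 and Cpa3 at 0.19.

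Neutrophil genes had 14 of 15 negative values and a median of -0.17, with the receptor gene Csf3r at -0.48 and the elastase gene Elane at -0.32. Their summed signal was 103421, 144188 and 120651 in double-null pools 1 to 3, against 165661 and 105889.5 in wildtype pools 1 and 2, with wildtype pool 1 the highest. B lineage genes had a median of -0.25, with Cd22 at -0.42 and Dntt at 0.57. Macrophage genes, which include those of the cells that nurse red cell precursors, had a median of -0.017, with Mrc1 at 0.43 and Cd14 at 0.49. Cell division genes were at 0.030, with Mcm5 at -0.29 and Kif11 at 0.22. The erythroid members' own summed signal was 73476, 75181 and 71235 in double-null pools 1 to 3, against 78549 and 64872 in wildtype pools 1 and 2. Its highest and lowest values were both in wildtype pools.

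Most gene lists, muscle and cartilage among them, had a wider range over the pools than the erythroid members. The median of highest over lowest signal was 1.37 for the members and 1.48 over all genes tested. It was 1.53 for the 36 other erythroid genes tested, so the narrower range of the members did not extend to them. It was 1.64 for bone, 1.66 for neutrophil, 1.55 for B lineage and 1.54 for macrophage genes. Megakaryocyte and cell division genes were narrower, at 1.33 each. The highest signal of a skeletal muscle gene was a median of 2.45 times its lowest, with Ckm at -0.45 and Acta1 at -0.32, and that of a cartilage gene 1.80 times, with Comp at 0.83 and Col9a1 at -0.42. Summed muscle signal was 58024, 42700.3 and 100903 in double-null pools 1 to 3, against 67847 and 83688 in wildtype pools 1 and 2. Summed cartilage signal was 19225, 18354 and 17012.5 in double-null pools 1 to 3, against 23479 and 11914 in wildtype pools 1 and 2. Bone genes had a median log2 fold change of -0.051, with Sost at 0.31 and Sp7 at -0.15. The part of these tissue shares in the erythroid values was not tested.

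**Figure D4:**
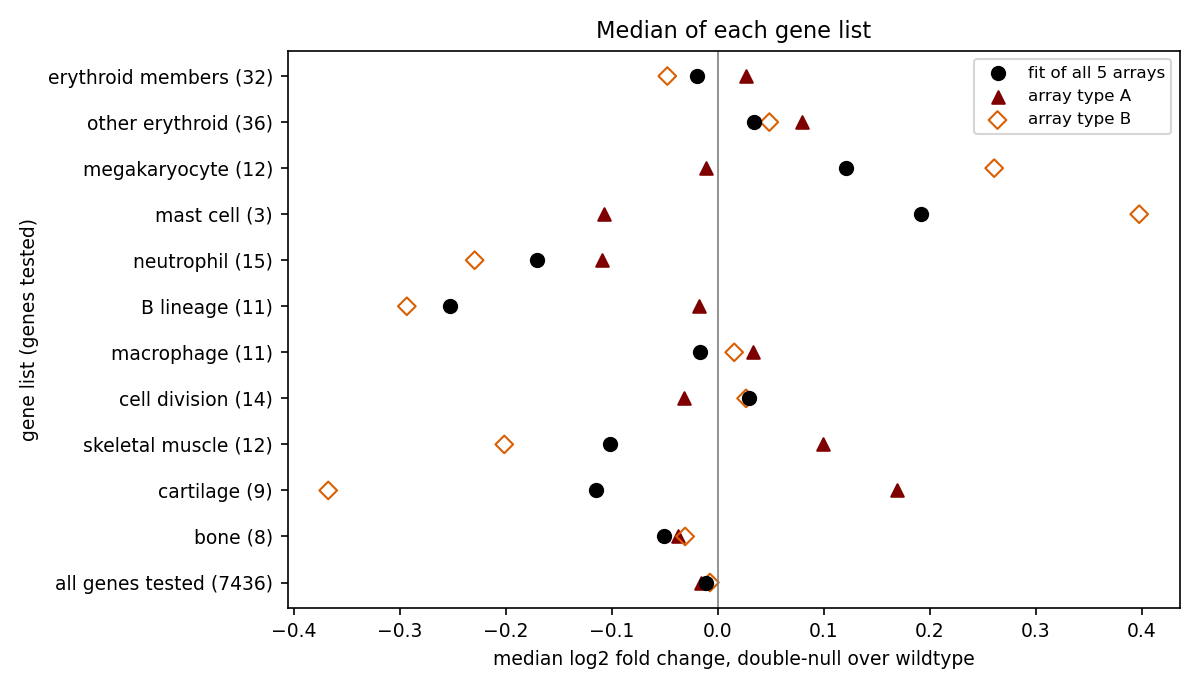
Median log2 fold change (x axis, double-null over wildtype) of the erythroid members and of each other gene list, with the number of genes tested in brackets, from the fit of all 5 arrays and within each array type. The erythroid members, the other erythroid genes and all genes tested lie within 0.08 of 0 in all 3 readings, with 0.080 for the other erythroid genes on type A the farthest.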

How the data were processed

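RNA of whole tibio-femoral joints was hybridised to Affymetrix mouse arrays, 1 array per pool. The authors deposited linear signal intensity values per probe set. The submitters' processing notes name MAS5 for them, without a version or a scaling target. Intensities of the 22690 probe sets present in both tables had 32 added, were put on the log2 scale and quantile normalised over 5 arrays. Platform symbols were updated through Entrez identifiers. A total of 20393 probe sets had 1 symbol, 691 had several, and 64 controls were left out of the tests. Genes under the 40th percentile of mean signal (98.5) were left out. Each gene was fitted in R 4.3.3 with limma 3.58.1, with genotype and array type as terms, an intensity trend and Benjamini-Hochberg adjustment at 0.05. Residual degrees of freedom were 2 and prior ones 9.80, and 5 arrays limit the precision. A second fit covered all 22626 probe sets that are not controls. Nothing in the labels says that pools of a group were prepared on separate occasions, so p-values rest on the spread between these pools only. That spread was shared over genes through the intensity trend and the prior degrees of freedom, and is not that of each gene alone. The fitting step was tested on simulated data with planted changes larger than those of the members on their brightest probe sets. Normalisation, the choice of probe set and the filter were not tested in this way.

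Named genes were every member with a probe set, Bgn and Epyc, the 6 other erythroid genes with the smallest p, and up to 2 genes of each marker list. The second Prdx2 probe set, Pklr and the embryonic globins were named after their values were seen. The members and lists were chosen with earlier results of these data known. Other scalings, filters, added constants, terms and array subsets were tried, and promoters were read from RefSeq tables (GRCm38.p6).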

Additional observations from a re-analysis of the deposited data

How the results depend on the processing

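Over the alternatives the members' median log2 fold change lay between -0.053 and 0.026, and of 512 tested member values 1 passed, that of Prdx2 with probe sets averaged, which gave 1 member called and 16 genes in place of 9. Genes called numbered 2 on array type B alone, 5 with the deposited scaling, 4 without the array type term, 2 without the filter, 5 without the intensity trend and 2 to 50 without single pools, with 20 and 50 when double-null pool 1 or 2 was left out and 2 without any other pool. With the replicate block and no array type term 0 genes passed (484 at an unadjusted p under 0.05, smallest limma adjusted p 0.065). The pools share only numbers, with same-number correlations of 0.0048 and -0.18. Without double-null pool 2 there was 1 marker of other cells called, against 0 without any other pool. Of the Bgn and Epyc probe sets 0 passed on type B alone and 0 to 3 without single pools, although the Bgn fold changes on type B were -3.77, -6.14 and -5.37, against -3.48, -6.00 and -5.42 with all pools. The second Prdx2 probe set was at -3.17 on type A, where no test was possible. It did not pass at -2.57 on type B (adjusted p 0.36), -2.83 without the trend (0.054), or -2.69 with the replicate block (0.15). Without single pools it ran from -3.24 to -2.54, and missed the threshold without double-null pool 3 (limma adjusted p 0.32) and without wildtype pool 1 (0.41) or 2 (0.39). Fold change signs differed from the values above in 4 of 32 members with the deposited scaling, 6 with median centring, 11 on type A and 8 on type B. Fewer samples enter the type and single-pool fits, and the cause of the other changes was not tested.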
